A study of Caenorhabditis elegans with 30 samples.

Results

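Many homeobox genes of the nematode Caenorhabditis elegans carry the name ceh and a number, and their transcripts were followed here together with that of unc-39, a homeobox gene with a name of its own. The set comprised the protein-coding genes of the deposited count table whose symbol is ceh- and a number, and unc-39 (WBGene00006775). These were 64 genes, 63 ceh genes and unc-39, of 46748 genes in the table, 19641 of them protein coding. The set is defined by gene names, and it was chosen with earlier results of these data known.

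Homeobox genes encode transcription factors that bind DNA through a homeodomain, and their classes differ in the homeodomain and in the domains beside it. Factors of the sine oculis class, to which unc-39 belongs, are named after the fly gene sine oculis, carry a conserved domain next to the homeodomain and act in the formation of mesoderm, head structures and neurons. Hox and other Antennapedia class factors give cells their identity along the body axis, PBC class factors bind DNA together with Hox factors, and CUT and ONECUT factors include genes that are read in nearly all cells and genes read throughout the nervous system. In C. elegans most homeobox genes are known for setting the identity of small groups of cells in the embryo and for keeping the identity of single neuron classes in the adult.

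RNA was measured in whole hermaphrodites of the wild-type strain N2 at 5 days of age, kept on bacteria that make double-stranded RNA of a target gene (RNAi by feeding). The 30 libraries comprised 8 treatments of 3 libraries and 6 libraries of animals on L4440, the feeding vector with no worm gene in it. Titles carry the prefix RM or ZK, whose meaning the labels do not give, with 15 libraries each. The RM libraries held the targets F25H2.5 (ndk-1), F55H2.6 (clu-1), R04E5.10 (ifd-1) and F26D12.1 (fkh-7) beside the controls L4440_RM, and the ZK libraries held C01A2.5 (tads-1), M04C9.5 (dyf-5), R186.7 (pnn-1) and ZK795.1 (ipmk-1) beside L4440_ZK. All groups share strain, sex, age and feeding. Whether the 3 libraries of a group are separate cultures is not in the labels, so p-values measure only the spread between libraries, which may be technical.

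Library totals ran from 31835911 to 44987307 gene counts. The biological coefficient of variation, the spread between replicates beyond counting error, was 5.42% in ZK and 11.7% in RM libraries, so that a given change is harder to detect in RM. The transcript of the targeted gene was lower than in the matching L4440 libraries for ndk-1 (log2 fold change -4.46), pnn-1 (-2.58), tads-1 (-1.96), clu-1 (-1.08) and ipmk-1 (-0.62). It was not lower for 3 targets, with 4.75 for dyf-5, 2.01 for ifd-1 and 0.23 for fkh-7 (adjusted p = 1.00), and these are called the libraries labelled M04C9.5, R04E5.10 and F26D12.1. Markers of neurons, muscle, intestine, epidermis, germline, oocytes and sperm were all measured. Reads from 2 genes that overlap on opposite strands cannot be separated, because the library kit keeps no strand.

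Levels are CPM, counts scaled to a common library size and corrected for library composition, listed for libraries 1, 2 and 3 of a group. Changes are log2 fold changes of a treatment over the L4440 libraries with its prefix, each ± standard error (n = 3 libraries per group). The words rose and fell are kept for an adjusted p under 0.05 in edgeR's quasi-likelihood test, with Benjamini-Hochberg adjustment over all genes tested. In RNA of whole animals, fewer cells of a type and less RNA per cell cannot be told apart.

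The genome of build WBcel235 holds 18 of the 64 genes on X, 13 on II, 13 on V, 8 on I, 8 on III and 4 on IV. A filter on low counts, which asks for about 10 counts in at least 3 libraries, left 49 of the 64 in ZK and 49 in RM libraries. ceh-8 passed in ZK alone and ceh-57 in RM alone. In ZK, 6 members passed only through the C01A2.5 libraries: ceh-2, ceh-8, ceh-24, ceh-31, ceh-36 and ceh-45. The 14 genes that passed in neither never exceeded 12 counts in a library. Their highest counts were 12 for ceh-9, 11 for ceh-75, 10 for ceh-76, 9 for ceh-23, 7 for ceh-53, 6 for ceh-17 and ceh-87, 5 for ceh-54, 4 for ceh-7, ceh-12, ceh-28, ceh-81 and ceh-84, and 3 for ceh-90. A difference in these 14 was not detectable at this depth.

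Several members lie next to each other. The ONECUT genes ceh-41, ceh-21 and ceh-39 stand in a row on X, with gaps of 103 and 1137 bases, and the sine oculis class genes ceh-34 (V:5315496-5319577, minus strand) and ceh-33 (V:5323194-5324666, minus strand) are neighbours. unc-39 lies apart from them at V:14373074-14375881 on the plus strand, and ceh-32 at V:11701764-11705400 on the minus strand. Exons of 9 members overlap another protein-coding gene. On opposite strands these are ceh-5 with ocrl-1, ceh-16 with polk-1, ceh-19 with mcm-3AP, ceh-34 with C10G8.2, ceh-38 with tra-2, ceh-40 with xtr-2 and ceh-60 with ets-4, and on the same strand ceh-63 with tag-52 and ceh-88 with C49C3.6. The values of all 9 are uncertain to that extent.

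Per kilobase of exon, ceh-38, a ONECUT gene read in nearly all cells, had the highest level of the set in L4440_ZK animals, 88.3 ± 2.89 CPM per kilobase (SD, n = 3). It was followed by ceh-49 of the same class with 44.1 ± 3.1, ceh-92 with 35.5 ± 1.78, ceh-91 with 29.8 ± 1.41, ceh-100 with 28.3 ± 1.28 and ceh-39 with 23.1 ± 0.699. ceh-91 and ceh-100 do not differ beyond their spread. ceh-39 is known as an X-chromosome signal in sex determination. ceh-32, the SIX3/6 homolog, stood at 16.8 ± 3.17 and ceh-43, the Distal-less homolog, at 14.6 ± 2.5, and these do not differ beyond their spread either. unc-39 ranked 24 with 2.21 ± 0.34 CPM per kilobase.

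Against L4440, homeobox transcripts were mostly higher where they differed, and the number that passed the test differed widely between treatments. After C01A2.5 RNAi 45 of 49 members passed, 32 higher and 13 lower, where 88.1% of all 16495 genes tested passed, 51.7% higher and 36.4% lower. The 6 members that passed the filter only through these libraries had to be higher. Without them 39 of 43 passed, 26 higher and 13 lower. In the libraries labelled M04C9.5, 17 of 49 passed, 15 higher and 2 lower, against 19.8% of all genes. Among RM libraries 6 of 49 passed after F25H2.5 RNAi (8.65% of all 15795 genes), 11 after F55H2.6 RNAi (18.9%) and 6 in the libraries labelled R04E5.10 (2.28%). None passed in R186.7, ZK795.1 or F26D12.1. The 3 members ceh-19, ceh-88 and ceh-99 passed in none of the 8 comparisons. Treatments of a prefix share their L4440 libraries, so their values stand side by side here and an overlap of their lists is not a result.

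**Figure D1:**
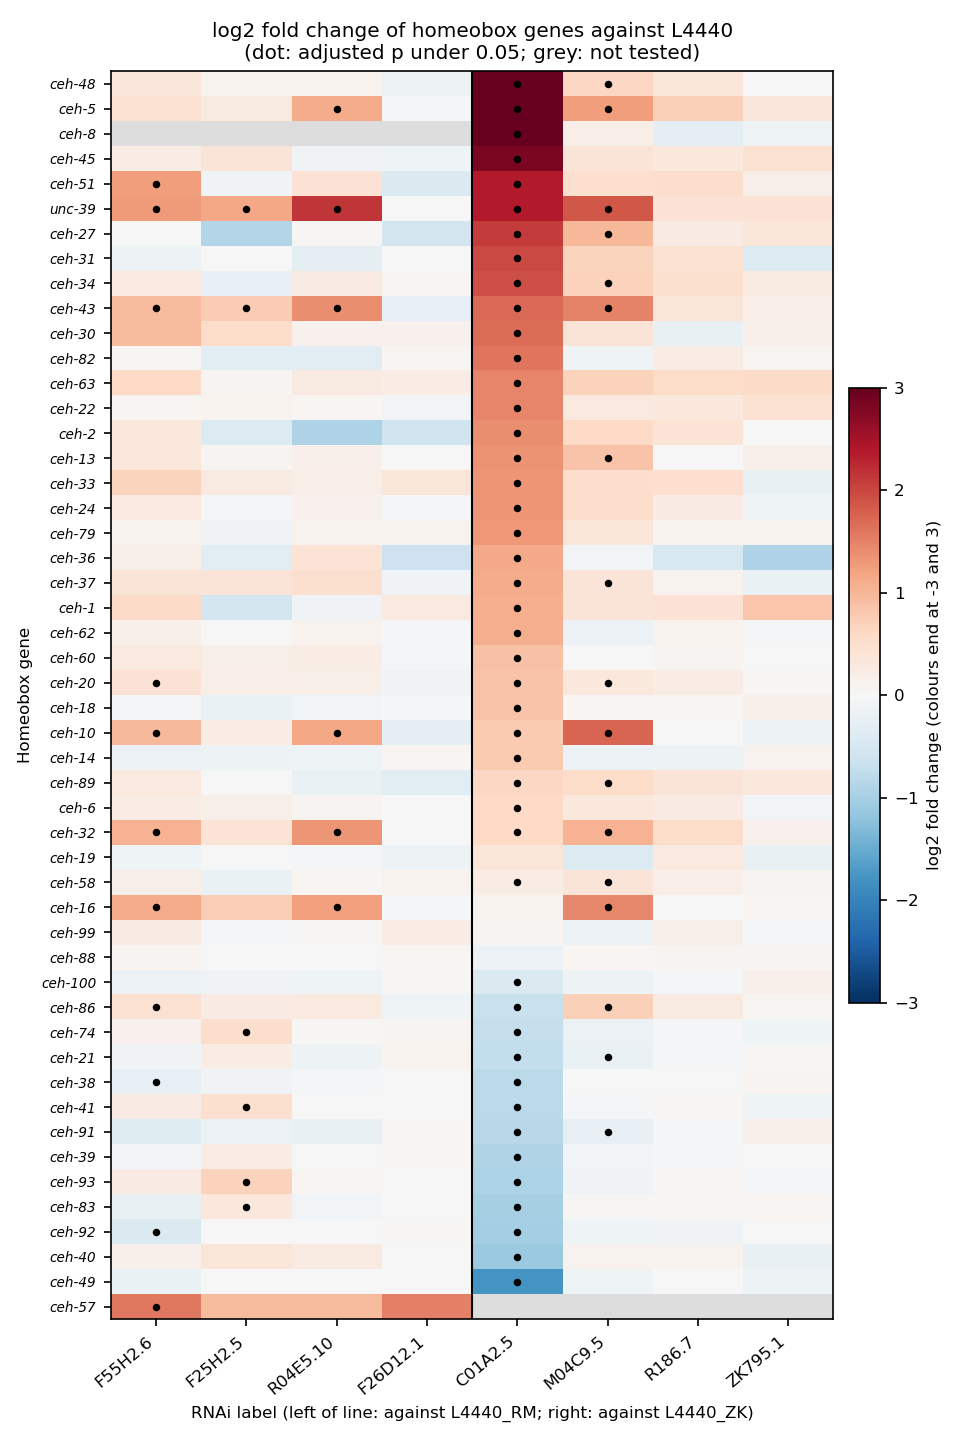
Log2 fold change of each homeobox member (rows, ordered by the value after C01A2.5 RNAi) in the 8 RNAi groups (columns, RM left of the line, ZK right of it) against the L4440 libraries of the same prefix. Dots mark an adjusted p under 0.05 and grey marks members not tested. The C01A2.5 column has 45 dots, M04C9.5 17, F55H2.6 11, F25H2.5 and R04E5.10 6 each. The 6 members that passed the filter only through the C01A2.5 libraries had to be higher in that column and are not marked.

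The balance of higher and lower calls depends on how libraries are scaled. With the trimmed mean of M values 51.9% of all genes called in M04C9.5 were higher, against 34.2% with relative log expression factors and 77.4% with library totals. The same shares were 54.8%, 41.7% and 81% for F55H2.6, 72.9%, 50.5% and 86.9% for R186.7, 65.9%, 47.7% and 51.6% for ZK795.1, and 54.5%, 47.5% and 77.5% for L4440_RM against L4440_ZK. Among members, 15 were higher and 5 lower in M04C9.5 with relative log expression factors, and 16 higher and 1 lower with library totals. In F55H2.6 these counts were 9 higher and 4 lower, and 14 higher and 1 lower. DESeq2 gave 11 higher and 5 lower in M04C9.5 and 8 and 4 in F55H2.6. For C01A2.5 the shares over all genes were 58.7%, 53% and 65.4% in the same order of scalings, and 52% with DESeq2. Its members split into 32 higher and 13 lower, 28 and 14, and 34 and 13, and with DESeq2 into 23 and 14.

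unc-39, a SIX4/5-type gene known for mesoderm and cell migration, rose in the C01A2.5, M04C9.5, F25H2.5, F55H2.6 and R04E5.10 groups, each set against the L4440 libraries of its prefix. It stood at 15.8, 16 and 17.1 CPM after C01A2.5 RNAi and at 10.1, 12.4 and 11.5 in the libraries labelled M04C9.5, against 3.57, 3.15 and 2.61 in L4440_ZK. All 6 treated libraries lay above all 3 controls. The log2 fold changes were 2.38 ± 0.11 (adjusted p = 9.8e-19) after C01A2.5 RNAi, which is 5.21-fold, and 1.87 ± 0.11 (adjusted p = 1.31e-13) in M04C9.5, which is 3.65-fold.

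In R186.7 and ZK795.1 libraries unc-39 did not pass, with 4.98, 3.76 and 3.82 CPM in R186.7 and 4.06, 3.99 and 4.5 CPM in ZK795.1, against the same controls. Every one of these libraries was above the highest control, by less than in the other ZK treatments. The differences were 0.43 ± 0.13 (adjusted p = 0.0655) in R186.7 and 0.44 ± 0.13 (adjusted p = 0.0761) in ZK795.1.

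Among RM libraries unc-39 had 6.11, 5.47 and 6.95 CPM in those labelled R04E5.10, 3.61, 2.62 and 4.18 CPM after F55H2.6 RNAi and 2.45, 3.46 and 3.59 CPM after F25H2.5 RNAi. It had 1.71, 1.14 and 1.3 CPM in those labelled F26D12.1 and 1.18, 1.94 and 1.14 CPM in L4440_RM. The first 3 groups lay wholly above the controls, while F26D12.1 and the controls overlapped. It rose by 2.15 ± 0.23 (adjusted p = 0.000279) in R04E5.10, 4.45-fold, by 1.28 ± 0.23 (adjusted p = 0.00177) after F55H2.6 RNAi and by 1.16 ± 0.24 (adjusted p = 0.00746) after F25H2.5 RNAi, and the value in F26D12.1 was -0.02 ± 0.25 (adjusted p = 1.00). Each of these rises also passed with any 1 of the 6 libraries compared left out. In F25H2.5 the rise was lost with all 6 L4440 libraries as controls (0.48, adjusted p = 0.225) and without the third library of every RM group (0.92, adjusted p = 0.0772), and in F55H2.6 without the third libraries (0.99, adjusted p = 0.0549). In order of level, unc-39 ranked 12 of the set after C01A2.5 RNAi at 11.6 ± 0.494 CPM per kilobase, 17 in M04C9.5 at 8.08 ± 0.817, 22 in R04E5.10 at 4.4 ± 0.526 and 29 in L4440_RM at 1.01 ± 0.32.

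**Figure D2:**
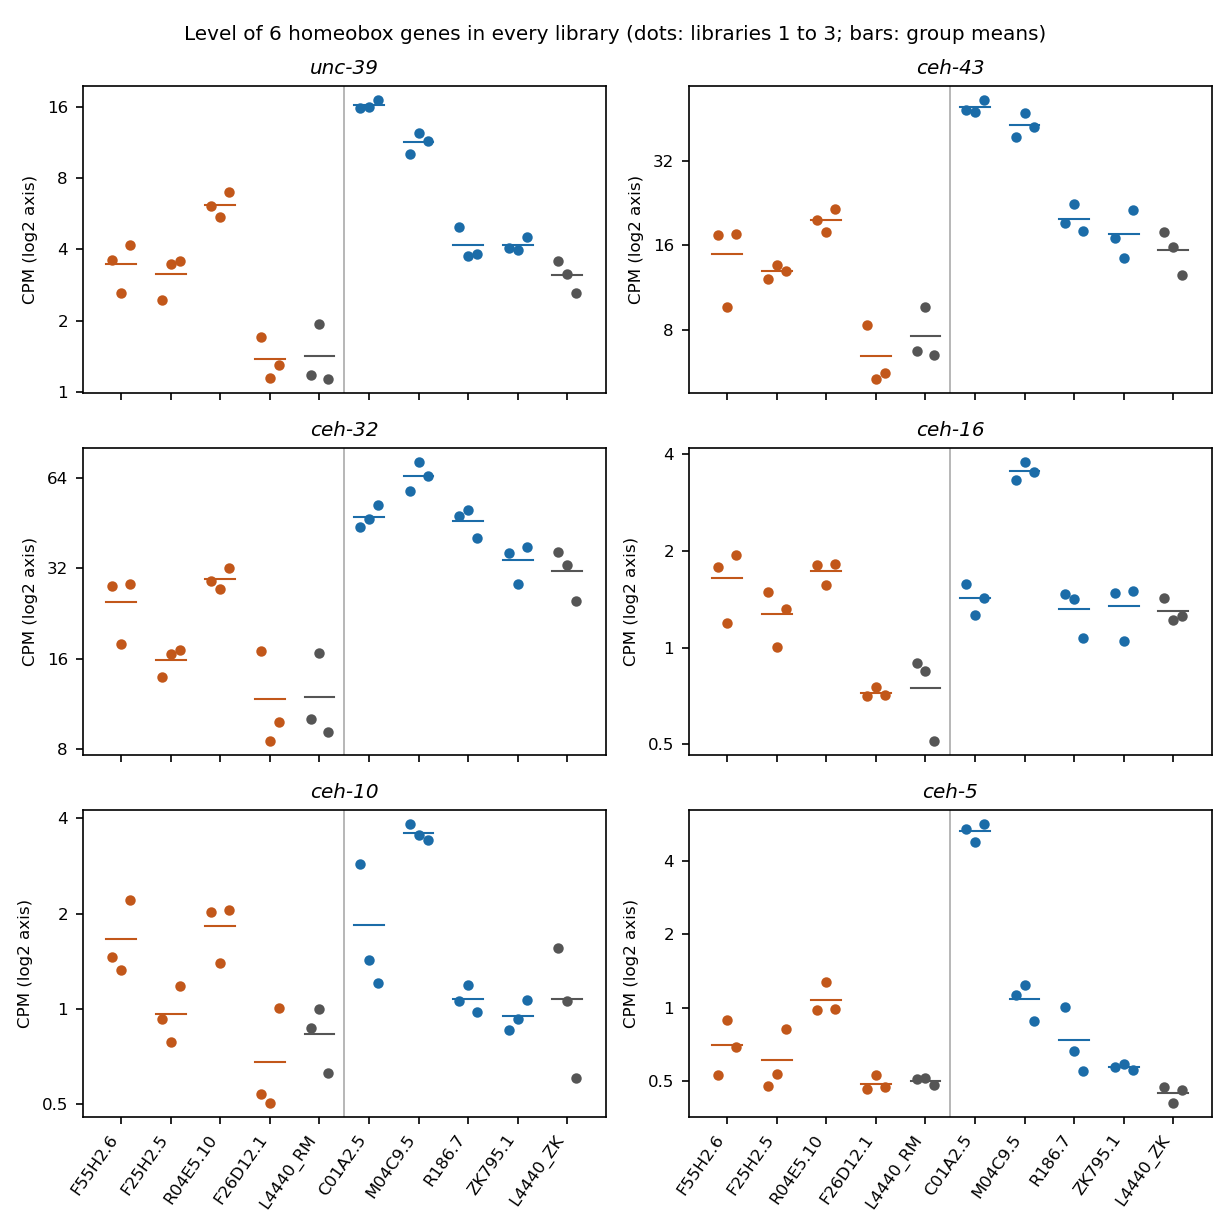
Level of unc-39, ceh-43, ceh-32, ceh-16, ceh-10 and ceh-5 in every library, in CPM on a log2 axis, with 1 point per library and a bar at the group mean (3 libraries); RM groups are orange, ZK groups blue and L4440 grey. The unc-39 panel shows the C01A2.5 libraries at 15.8 to 17.1 CPM above L4440_ZK at 2.61 to 3.57 CPM, and R04E5.10 at 5.47 to 6.95 above L4440_RM at 1.14 to 1.94.

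The other sine oculis class genes had smaller changes than unc-39 where they passed. ceh-32 had 43.9, 46.8 and 52.1 CPM after C01A2.5 RNAi and 58.1, 72.3 and 65 CPM in the libraries labelled M04C9.5, against 36.3, 32.9 and 24.8 in L4440_ZK. Neither treated group overlapped the controls, and the rises were 0.60 ± 0.15 (adjusted p = 0.00255) after C01A2.5 RNAi and 1.05 ± 0.15 (adjusted p = 0.000309) in M04C9.5. In R186.7 libraries its level was 47.9, 49.9 and 40.5 CPM, a difference that did not pass (0.56 ± 0.15, adjusted p = 0.0877).

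In RM libraries ceh-32 had 29, 27.2 and 32 CPM in those labelled R04E5.10 and 27.9, 17.9 and 28.4 CPM after F55H2.6 RNAi, against 10.1, 16.6 and 9.12 in L4440_RM. All 6 lay above the controls, though F55H2.6 library 2 and control library 2 were close. The rises were 1.33 ± 0.28 (adjusted p = 0.0282) in R04E5.10 and 1.04 ± 0.28 (adjusted p = 0.0225) after F55H2.6 RNAi. After F25H2.5 RNAi ceh-32 did not pass (0.40 ± 0.28, adjusted p = 0.395), and with all 6 L4440 libraries as controls the value was -0.45. Without L4440_RM replicate 1 or 3, or without replicate 1 or 3 of the treated group, ceh-32 no longer passed in R04E5.10 (1.16 to 1.33, adjusted p up to 0.121) or in F55H2.6 (0.87 to 0.94, adjusted p up to 0.092).

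Of the neighbouring genes ceh-34 and ceh-33, ceh-34 is known for the identity of pharyngeal neurons. ceh-34 stood at 2.21, 2.28 and 2.3 CPM after C01A2.5 RNAi and 0.836, 0.969 and 1.06 in M04C9.5, against 0.475, 0.624 and 0.653 in L4440_ZK, and both treated groups lay above the controls. It rose by 1.94 ± 0.21 (adjusted p = 4.68e-10) after C01A2.5 RNAi and by 0.70 ± 0.24 (adjusted p = 0.0363) in M04C9.5. ceh-33 was low, with 0.56, 0.54 and 0.337 CPM after C01A2.5 RNAi, against 0.238, 0.125 and 0.194 in L4440_ZK, a rise of 1.33 ± 0.37 (adjusted p = 0.00158) with no overlap. In M04C9.5 ceh-33 had 0.52 ± 0.42 and did not pass. Neither gene passed in R186.7 (0.47 for ceh-34 and 0.50 for ceh-33), ZK795.1 (0.28 and -0.23), F25H2.5 (-0.25 and 0.27), F55H2.6 (0.30 and 0.67), R04E5.10 (0.25 and 0.20) or F26D12.1 (0.06 and 0.36).

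After C01A2.5 RNAi, which targets tads-1, most homeobox genes were higher and the most abundant ones were lower. The median log2 fold change over the 49 members was 0.85, against 0.42 over all 16495 genes. By direction, 51.7% of all genes were higher and 36.4% lower. The 6 members that passed the filter only through these libraries had to be higher, and without them 39 of 43 passed, 26 higher and 13 lower, with a median of 0.77. The median of all genes was 0.19 with relative log expression factors and 0.66 with library totals, a shift of -0.23 or 0.24. Relative to the median of all genes 31 of the 49 members stood above it, and of the 32 called higher only ceh-58 stood below it (0.22, or -0.20 relative to the median), and its sign turned with relative log expression factors (-0.00403).

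The ONECUT gene ceh-48, known for expression throughout the nervous system, had 8.1, 8.31 and 8.08 CPM after C01A2.5 RNAi, against 0.581, 0.624 and 0.653 in L4440_ZK. Every treated library was more than 10 times as high as any control, and the rise was 3.70 ± 0.15 (adjusted p = 2.5e-20), 13-fold. ceh-5 (I:9727169-9728034, plus strand) had 5.42, 4.79 and 5.64 CPM, against 0.475, 0.405 and 0.46 in L4440_ZK. This rise of 3.53 ± 0.18 (adjusted p = 1.43e-17), 11.6-fold, was opposite in sign to the change of ocrl-1 on the other strand, -1.03 ± 0.05.

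The other CUT and ONECUT genes moved the other way. ceh-49 (V:6118333-6120206, minus strand) had 12.7, 16 and 14.8 CPM after C01A2.5 RNAi, against 52.5, 50.9 and 45.8 in L4440_ZK, and fell by 1.78 ± 0.08 (adjusted p = 7.44e-18) with no overlap. ceh-39 had 20.8, 22.5 and 25.2 CPM, against 41.4, 43.8 and 41.8, and fell by 0.90 ± 0.07 (adjusted p = 1.68e-13). ceh-38 (II:6951526-6955409, plus strand), whose level led the set, fell by 0.80 ± 0.06 (adjusted p = 5.12e-13), and tra-2 on the other strand had -0.74 ± 0.05. With ceh-41 (-0.82) and ceh-21 (-0.74), 5 of the 6 CUT and ONECUT genes tested fell and 1 rose, with a median of -0.81.

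The genes ceh-92, ceh-83 and ceh-91, placed in no class here, fell as well. ceh-92 had 42, 43.1 and 44.1 CPM after C01A2.5 RNAi, against 82.3, 87.1 and 91 in L4440_ZK, and fell by 1.02 ± 0.06 (adjusted p = 1.14e-16). ceh-83 had 15.3, 16.9 and 16.7, against 30.9, 35 and 31.4, and fell by 1.00 ± 0.07 (adjusted p = 6.88e-15). ceh-91 had 35.8, 37.6 and 36.2, against 63, 63.1 and 68.4, and fell by 0.84 ± 0.06 (adjusted p = 2.82e-14). In none of these 3 did the groups overlap.

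In the sine oculis, NK, paired-like and OTX, POU and Hox and Antennapedia classes no member fell. The 6 members admitted by these libraries alone were ceh-24 of the NK class, ceh-8, ceh-36 and ceh-45 of the paired-like and OTX class, and ceh-2 and ceh-31 of the Hox and Antennapedia class. Without them, all 4 sine oculis class genes rose (median 1.64), as did 3 of 3 NK genes (2.10), 2 of 2 paired-like and OTX genes (0.94), 2 of 2 POU genes (0.73) and 3 of 5 Hox and Antennapedia class genes (median 1.35). Of these, DESeq2 did not call ceh-33 (1.09, adjusted p = 0.0639), ceh-10 (0.51, adjusted p = 0.117) or ceh-6 (0.34, adjusted p = 0.308). Calls of ceh-1, ceh-2, ceh-14, ceh-24, ceh-36, ceh-58 and ceh-89 were lost with DESeq2 as well. NK genes were led by ceh-51, an early mesoderm gene (2.38 ± 0.27), and also held ceh-27 (2.10 ± 0.30) and ceh-22, known in pharyngeal muscle (1.46 ± 0.31). Of the paired-like and OTX genes, ceh-8, the Rx homolog, rose by 3.22 ± 0.33, ceh-45 by 2.84 ± 0.34 and the Otx gene ceh-37 by 1.10 ± 0.10. ceh-63 rose by 1.47 ± 0.26 (adjusted p = 6.78e-06), while tag-52, which overlaps it on the same strand, had -0.85 ± 0.06.

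The labial-type Hox gene ceh-13 rose by 1.35 ± 0.12 and ceh-43 (III:4446638-4449943, minus strand) by 1.69 ± 0.14 (adjusted p = 8.88e-08). ceh-43 stood at 48.8, 48.1 and 53 CPM after C01A2.5 RNAi, against 17.8, 15.8 and 12.6 in L4440_ZK, with no overlap, and ranked 2 of the set per kilobase in the treated animals. The engrailed homolog ceh-16 did not pass (0.12 ± 0.18, adjusted p = 0.529). The PBC class was split. ceh-20, the Hox cofactor of the extradenticle type, rose by 0.85 ± 0.07 and ceh-60, known for yolk genes in the intestine, by 0.89 ± 0.09, while ceh-40 fell by 1.10 ± 0.10. The gene ets-4, which overlaps ceh-60 on the opposite strand, had 0.71 ± 0.07, the same sign as ceh-60.

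The rest of the 25 smallest p-values belonged to ceh-62 (1.08), ceh-79 (1.31) and ceh-18, a POU gene of the gonadal sheath (0.85), which rose, and to ceh-93 (-0.95) and ceh-74 (-0.71), which fell. By level, the 9 members highest per kilobase in L4440_ZK all fell, where 36.4% of all genes were lower. Of the 13 that fell 12 held ranks up to 16, while ceh-32, ceh-43, ceh-20 and ceh-58, also within these ranks, rose. The ranks come from the control libraries of this comparison, and other genes of like level were not counted. ceh-10, the VSX-type gene of the AIY and CAN neurons, was called although its C01A2.5 libraries overlapped the controls (2.88, 1.43 and 1.21 CPM, against 1.56, 1.06 and 0.605). Without C01A2.5 replicate 1 or L4440_ZK replicate 2 or 3 ceh-10 lost its call (0.26 to 0.76, adjusted p up to 0.313). So did ceh-89 without C01A2.5 replicate 1 (0.33, adjusted p = 0.061), ceh-58 without replicate 3 of either group (0.16 to 0.17, adjusted p up to 0.0897), ceh-6 and ceh-24 without L4440_ZK replicate 3 (0.35, adjusted p = 0.159, and 1.00, adjusted p = 0.0801) and ceh-1 without L4440_ZK replicate 1 or 3 or C01A2.5 replicate 3 (0.89 to 1.02, adjusted p up to 0.0742).

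**Figure D3:**
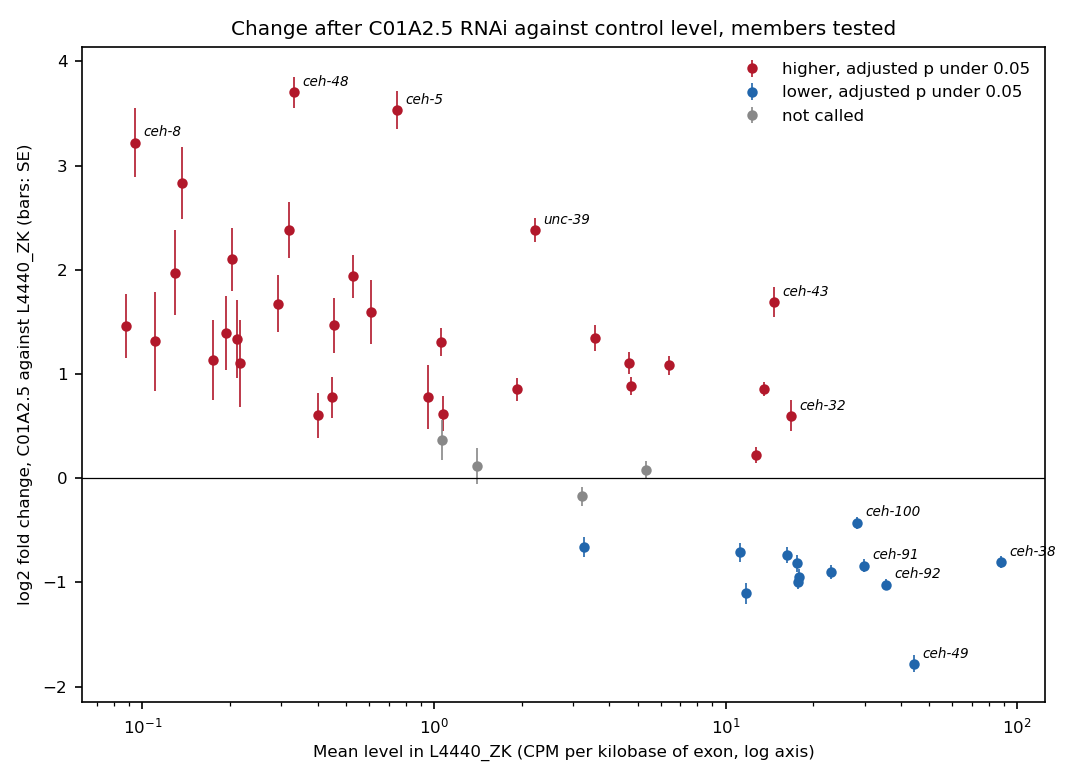
Log2 fold change after C01A2.5 RNAi against L4440_ZK (vertical axis) for each member tested, by its level in L4440_ZK in CPM per kilobase of exon (horizontal axis, log scale). The members with the highest levels, ceh-38, ceh-49, ceh-92, ceh-91 and ceh-100, lie below 0, and ceh-48, ceh-5 and ceh-8 lie above 3. The 6 members that passed the filter only through the C01A2.5 libraries, ceh-8 among them, had to lie above 0 and are not marked.

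Cell type markers moved with these changes after C01A2.5 RNAi, and their part in the result was not tested. All 10 sperm markers were higher, with a summed level of 1623 to 1813 CPM, against 18.0 to 22.1 CPM in L4440_ZK. All 8 germline and all 8 oocyte markers were lower, the oocyte sum being 3446 to 3756 CPM, against 9508 to 10340 CPM. Of 15 neuronal markers 13 were higher and 1 lower (median 0.99), all 5 pharyngeal muscle, all 7 body wall muscle and all 7 intestinal markers were higher, 2 of 3 gonadal sheath markers were higher, and of 4 embryonic markers tested 3 were lower. Of 8 epidermal and seam markers 5 were higher and 2 lower, and their sum was 198 to 206 CPM, against 251 to 254 CPM. Medians were 0.92 for pharyngeal muscle, 0.97 for intestinal and 0.67 for gonadal sheath markers. Those of body wall muscle (0.49) and of epidermal and seam markers (0.41) lay near the 0.42 of all genes, of which 51.7% were higher. The embryonic sum over 7 markers was 8.02 to 11.5 CPM, against 18.3 to 27.1 CPM, and in any library of the series at most 2 of the 7 were at 0.

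In the libraries labelled M04C9.5 the homeobox genes that differed were mostly higher, and unc-39 led by p. Of all genes 10.3% were higher and 9.5% lower, and the median over the 49 members was 0.32, against -0.003 over all genes. By class, 3 of 4 sine oculis class genes, 3 of 7 Hox and Antennapedia class genes, 2 of 5 paired-like and OTX genes, 1 of 4 NK genes and 1 of 3 PBC genes were higher. Of 6 CUT and ONECUT genes 1 was higher and 1 lower, and of 17 members placed in no class 4 were higher and 1 lower. Neither the POU genes nor the LIM gene passed.

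ceh-16, the engrailed homolog known in the epidermis and its seam cells (III:8622735-8626314, plus strand), had 3.32, 3.78 and 3.52 CPM in M04C9.5, against 1.43, 1.22 and 1.26 in L4440_ZK. It rose by 1.43 ± 0.15 (adjusted p = 1.55e-08), while polk-1 on the other strand had -0.16 ± 0.05. ceh-43 had 39.1, 47.5 and 42.5 CPM, against 17.8, 15.8 and 12.6, and rose by 1.48 ± 0.14 (adjusted p = 7.14e-06). ceh-13 had 6.47, 6.1 and 5.57 CPM, against 3.91, 2.81 and 3.14, and rose by 0.87 ± 0.13 (adjusted p = 5.67e-06).

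ceh-10 (III:5799047-5801115, plus strand) had 3.83, 3.54 and 3.42 CPM in M04C9.5, against 1.56, 1.06 and 0.605 in L4440_ZK, where the controls spread over more than a factor of 2. It rose by 1.75 ± 0.28 (adjusted p = 0.000199). ceh-5 had 1.13, 1.24 and 0.881 CPM, against 0.475, 0.405 and 0.46, and rose by 1.26 ± 0.24 (adjusted p = 0.000166), with -0.15 ± 0.05 for ocrl-1. ceh-86 had 11.9, 14.6 and 13.9 CPM, against 8.4, 7.92 and 8.13, and rose by 0.72 ± 0.09 (adjusted p = 1.54e-07). After C01A2.5 RNAi ceh-86 fell by 0.66 ± 0.09.

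Smaller rises were found for ceh-58 (0.38 ± 0.08), ceh-20 (0.32 ± 0.07), ceh-37 (0.40 ± 0.11), ceh-89 (0.54 ± 0.17), ceh-48 (0.63 ± 0.21) and ceh-27 (0.99 ± 0.35). The falls were those of ceh-91 (-0.26 ± 0.06) and ceh-21 (-0.21 ± 0.07). Leaving out M04C9.5 replicate 2 brought the count to 11, and calls lost without that library were those of ceh-37 (0.27 to 0.33, adjusted p up to 0.107, also without L4440_ZK replicate 3), ceh-89 (0.47 to 0.52, adjusted p up to 0.115, also without L4440_ZK replicate 1 or 2) and ceh-21 (-0.20 to -0.18, adjusted p up to 0.17, also without replicate 1 of either group), together with ceh-48, ceh-34 and ceh-27. ceh-48 and ceh-34 were lost as well without M04C9.5 replicate 3 or any L4440_ZK library (0.53 to 0.65, adjusted p up to 0.153, and 0.57 to 0.78, adjusted p up to 0.156), and ceh-27 without M04C9.5 replicate 1 or 3 or L4440_ZK replicate 1 or 3 (0.67 to 1.07, adjusted p up to 0.236).

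Beside these values the M04C9.5 libraries had a summed level of 7 embryonic markers of 26.6 to 32.4 CPM, against 18.3 to 27.1 CPM in L4440_ZK, and 1 of the 4 tested was higher (tbx-38, 0.57). Of 8 epidermal and seam markers 3 were higher, dpy-7 (1.29), nhr-25 (1.05) and elt-1 (0.40), and 1 lower, col-19 (-0.22). Of 5 pharyngeal muscle markers 3 were higher, 4 of 7 body wall muscle and 3 of 7 intestinal markers were lower, and 1 of 15 neuronal markers was higher. Of 8 oocyte markers 3 were lower, of 8 germline markers 1 was lower, of 3 gonadal sheath markers 1 was higher and 1 lower, and of 10 sperm markers 0 passed edgeR's test. The part of these cell types in the result was not tested.

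In the libraries labelled R04E5.10 a few members of different classes were higher. None was lower by edgeR's test, with 8 members at an unadjusted p under 0.05 in either direction, and DESeq2 called 7 higher and 0 lower. The 6 that passed are set against 1.56% of all genes higher and 0.715% lower, and the median over the 49 members was 0.07, against 0.002 over all genes. After unc-39 the smallest p belonged to ceh-43 with 19.7, 17.9 and 21.5 CPM, against 6.73, 9.62 and 6.48 in L4440_RM, a rise of 1.399 ± 0.22 (adjusted p = 0.00485). The treated libraries were each above the highest control.

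ceh-16 had 1.81, 1.56 and 1.82 CPM in R04E5.10, against 0.896, 0.847 and 0.511 in L4440_RM, and rose by 1.22 ± 0.23 (adjusted p = 0.0104). ceh-5 had 0.974, 1.27 and 0.984 CPM, against 0.512, 0.514 and 0.483, and rose by 1.12 ± 0.25 (adjusted p = 0.0251). ceh-10 had 2.02, 1.39 and 2.06 CPM, against 0.87, 0.998 and 0.625, and rose by 1.16 ± 0.28 (adjusted p = 0.0404). With ceh-32, these are the 6 that passed. polk-1 (0.05 ± 0.08) and ocrl-1 (0.04 ± 0.06), on the strands opposite ceh-16 and ceh-5, did not pass.

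The count in R04E5.10 was 2 without L4440_RM replicate 3, 3 without L4440_RM replicate 1 or R04E5.10 replicate 1 or 3, and 1, unc-39, without the third library of every RM group. ceh-5 lost its call without any 1 of the 6 libraries (0.99 to 1.19, adjusted p up to 0.0931), ceh-16 without L4440_RM replicate 3 (1.01, adjusted p = 0.056), and ceh-10 and ceh-32 without replicate 1 or 3 of either group (0.98 to 1.20, adjusted p up to 0.157 for ceh-10 and 1.16 to 1.33, adjusted p up to 0.121 for ceh-32). The summed embryonic markers were 12.4 to 14.7 CPM in R04E5.10, against 6.16 to 13.4 CPM in L4440_RM, and 0 of 4 tested passed edgeR's test. No list of markers of another cell type had a member past the test in this comparison.

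After F55H2.6 RNAi, which targets clu-1, 9 members were higher and 2 lower, where 10.4% of all genes were higher and 8.54% lower. The median over the 49 members was 0.24, against 0.04 over all genes. ceh-51, the early mesoderm gene, had 1.64, 1.32 and 1.38 CPM, against 0.41, 0.847 and 0.568 in L4440_RM, and rose by 1.25 ± 0.26 (adjusted p = 0.00379). ceh-16 had 1.78, 1.2 and 1.95 CPM, against 0.896, 0.847 and 0.511, and rose by 1.11 ± 0.23 (adjusted p = 0.00471), with -0.29 ± 0.08 for polk-1 on the other strand. All treated libraries lay above all controls for both genes.

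ceh-43 had 17.5, 9.67 and 17.6 CPM after F55H2.6 RNAi, against 6.73, 9.62 and 6.48 in L4440_RM, and rose by 0.96 ± 0.22 (adjusted p = 0.00946). Treated library 2 was only just above control library 2. ceh-57 was low, with 0.255, 0.331 and 0.282 CPM, against 0.102, 0.0605 and 0.114, and rose by 1.58 ± 0.39 (adjusted p = 0.0111). ceh-20, the Hox cofactor, had 19.2, 17.7 and 18.6 CPM, against 14.1, 15.1 and 11.5, and rose by 0.44 ± 0.11 (adjusted p = 0.0152).

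The falls were those of ceh-38 and ceh-92. ceh-38 had 228, 232 and 221 CPM after F55H2.6 RNAi, against 276, 258 and 262 in L4440_RM, and fell by 0.24 ± 0.06 (adjusted p = 0.00723), while tra-2 on the other strand had -0.35 ± 0.06. ceh-92 had 53.4, 57 and 44.5 CPM, against 66.1, 66.2 and 73.9, and fell by 0.42 ± 0.10 (adjusted p = 0.0074). ceh-86 rose by 0.45 ± 0.13 (adjusted p = 0.0242) and ceh-10 by 0.98 ± 0.28 (adjusted p = 0.0245).

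The count after F55H2.6 RNAi was 5 without F55H2.6 replicate 3, and 1, ceh-51, without the third library of every RM group. Calls lost without F55H2.6 replicate 3 were those of ceh-38 (-0.21, adjusted p = 0.0574), ceh-92 (-0.32, adjusted p = 0.0547) and ceh-43 (0.84, adjusted p = 0.0502). ceh-10 was lost without it or L4440_RM replicate 1 or 3 (0.74 to 1.02, adjusted p up to 0.139), ceh-86 and ceh-32 without replicate 1 or 3 of either group (0.37 to 0.49, adjusted p up to 0.107 for ceh-86 and 0.87 to 0.94, adjusted p up to 0.092 for ceh-32) and ceh-20 without L4440_RM replicate 3 (0.32, adjusted p = 0.0813). Beside these values, 6 of 8 germline and 6 of 8 oocyte markers were lower, and 1 of 15 neuronal and 1 of 3 gonadal sheath markers were higher. The embryonic sum was 9.31 to 15.4 CPM after F55H2.6 RNAi, against 6.16 to 13.4 CPM in L4440_RM, and 1 of 4 embryonic markers tested was higher (tbx-37, 1.16). Their part in the result was not tested.

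After F25H2.5 RNAi, which targets ndk-1, 6 members were higher and 0 lower by edgeR's test, where 5.26% of all genes were higher and 3.39% lower. At an unadjusted p under 0.05 12 members passed in either direction, and DESeq2 also gave 6 higher and 0 lower. The median over the 49 members was 0.09, against -0.003 over all genes. ceh-93 had 39.5, 39.2 and 34.5 CPM, against 23.8, 24.6 and 21.4 in L4440_RM, and rose by 0.69 ± 0.11 (adjusted p = 0.00166). ceh-74 had 12.6, 11.4 and 12.5 CPM, against 9.09, 8.01 and 8.15, and rose by 0.53 ± 0.11 (adjusted p = 0.00668).

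The ONECUT gene ceh-41 had 22.8, 24.3 and 20.4 CPM after F25H2.5 RNAi, against 16.7, 17.4 and 14.3 in L4440_RM, and rose by 0.47 ± 0.12 (adjusted p = 0.0224). ceh-83 had 31.1, 28.2 and 32.2 CPM, against 24.5, 23.1 and 25.6, and rose by 0.32 ± 0.09 (adjusted p = 0.0333). ceh-43 had 12.15, 13.6 and 13 CPM, against 6.73, 9.62 and 6.48, and rose by 0.76 ± 0.22 (adjusted p = 0.0494). With ceh-93, ceh-74 and unc-39, these are the 6 that passed. Only ceh-93, ceh-74 and unc-39 passed whichever library was left out. ceh-83 lost its call without any 1 of the 6 (0.28 to 0.37, adjusted p up to 0.114), ceh-43 without any but L4440_RM replicate 2 (0.65 to 0.80, adjusted p up to 0.159), and ceh-41 without L4440_RM replicate 1 or 3 or F25H2.5 replicate 1 or 2 (0.39 to 0.50, adjusted p up to 0.113). The count was 3 without F25H2.5 replicate 1 or 2 or L4440_RM replicate 1 or 3, and 2 without the third library of every RM group. Of 5 pharyngeal muscle, 8 germline and 10 sperm markers 2, 1 and 1 were lower, of 3 gonadal sheath markers 1 was higher, and of 4 embryonic markers 0 passed. Their part in the result was not tested.

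No member passed edgeR's test after R186.7 RNAi (pnn-1), after ZK795.1 RNAi (ipmk-1) or in the libraries labelled F26D12.1, where 2.55%, 1.99% and 0.00633% of all genes passed. At an unadjusted p under 0.05 there were 9, 5 and 2 of 49 members, and DESeq2 called 1, 0 and 0. Members' medians were 0.10, 0.05 and -0.007, against 0.008, 0.02 and 0.003 over all genes. After R186.7 RNAi the values nearest to the threshold were those of unc-39, ceh-32 and ceh-20 (0.22, adjusted p = 0.0877). The count in R186.7 was 3 without L4440_ZK replicate 1, and that in ZK795.1 was 2 without ZK795.1 replicate 3. In F26D12.1 the members under an unadjusted p of 0.05 were ceh-57 (1.51 ± 0.40) and ceh-99 (0.23 ± 0.10).

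Whether members differed between treatments was tested directly, since a pass in 1 treatment and not in another shows no difference. unc-39 was higher after C01A2.5 RNAi than in M04C9.5 by 0.51 ± 0.09 (adjusted p = 9.67e-06), a comparison in which 43 members and 87% of all genes differed. These members split into 26 higher and 17 lower after C01A2.5 RNAi, and with DESeq2 the split was 17 and 19. unc-39 was lower in R186.7 than in M04C9.5, at -1.44 ± 0.11 (adjusted p = 2.39e-11), and lower in ZK795.1 than in M04C9.5, at -1.43 ± 0.11 (adjusted p = 9.19e-12). ZK795.1 and M04C9.5 differed for 17 members (24.6% of all genes). R186.7 and M04C9.5 differed for 11 members (17% of all genes), with ceh-16 (-1.43 ± 0.15), ceh-10 (-1.74 ± 0.28), ceh-43 (-1.11 ± 0.14), ceh-13 (-0.86 ± 0.13) and ceh-32 (-0.50 ± 0.14) lower in R186.7. R186.7 and ZK795.1 differed for 3 members, ceh-40 (0.32 ± 0.09), ceh-91 (-0.19 ± 0.06) and ceh-100 (-0.19 ± 0.06), where 8.51% of all genes did. This split of 1 higher and 2 lower in R186.7 became 6 higher and 0 lower with library totals, and the share of higher calls over all genes was 78.9% with library totals, against 40.5%. With library totals the shares of higher calls over all genes were 41.4%, against 55.4%, for R186.7 over M04C9.5, and 24%, against 53.9%, for ZK795.1 over M04C9.5, and members split into 3 higher and 9 lower, against 4 and 7, and into 2 higher and 13 lower, against 4 and 13.

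Among RM treatments unc-39 was lower after F25H2.5 RNAi than in R04E5.10, at -0.997 ± 0.22 (adjusted p = 0.00956), and lower after F55H2.6 RNAi than in R04E5.10, at -0.87 ± 0.21 (adjusted p = 0.0103). F25H2.5 and R04E5.10 differed for 8 members (8.15% of all genes). ceh-93 (0.63 ± 0.11), ceh-74 (0.50 ± 0.11), ceh-41 (0.47 ± 0.12), ceh-83 (0.41 ± 0.09) and ceh-21 (0.38 ± 0.11) were higher after F25H2.5 RNAi, and ceh-10 (-0.94 ± 0.28) and ceh-5 (-0.84 ± 0.24) lower. F55H2.6 and R04E5.10 differed for 4 members (18.9% of all genes), unc-39, ceh-92 (-0.41 ± 0.10) and ceh-38 (-0.20 ± 0.05) being lower after F55H2.6 RNAi and ceh-51 (0.81 ± 0.24) higher. F25H2.5 and F55H2.6 differed for 10 members (25.9% of all genes), with ceh-51 (-1.37 ± 0.26) lower and ceh-83 (0.54 ± 0.09) and ceh-93 (0.44 ± 0.11) higher after F25H2.5 RNAi. R04E5.10 and F26D12.1 differed for 7 members (3.22% of all genes), all higher in R04E5.10, led by unc-39 at 2.18 ± 0.23 (adjusted p = 0.00018). With library totals the members split into 3 higher and 6 lower, against 6 and 4, in F25H2.5 over F55H2.6, into 4 higher and 4 lower, against 5 and 3, in F25H2.5 over R04E5.10, and into 2 higher and 2 lower, against 1 and 3, in F55H2.6 over R04E5.10. The shares of higher calls over all genes were then 28.4%, against 55.7%, 34.8%, against 49.2%, and 65.6%, against 43.9%, in the same order.

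The L4440 libraries of the 2 prefixes differed among themselves, although all were on the same vector. Of 50 members tested over all 30 libraries 23 differed, 7 higher and 16 lower in L4440_RM than in L4440_ZK, where 23.9% of 16867 genes were higher and 19.9% lower. The median over members was 0.06, against 0.08 over all genes, and with library totals it was 0.21 over all genes, a shift of 0.13, and members split into 14 higher and 10 lower. Prefix and any other difference between these libraries cannot be told apart.

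unc-39, ceh-32 and ceh-43 were all lower in L4440_RM. unc-39 had 1.18, 1.94 and 1.14 CPM in L4440_RM, against 3.57, 3.15 and 2.61 in L4440_ZK, a difference of -1.14 ± 0.20 (adjusted p = 7.5e-05). ceh-32 had 10.1, 16.6 and 9.12 CPM, against 36.3, 32.9 and 24.8, a difference of -1.40 ± 0.24 (adjusted p = 0.000108). ceh-43 had 6.73, 9.62 and 6.48 CPM, against 17.8, 15.8 and 12.6, a difference of -1.02 ± 0.21 (adjusted p = 0.000467). In none of the 3 did the groups overlap.

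ceh-41 had 16.7, 17.4 and 14.3 CPM in L4440_RM, against 25.4, 26.1 and 21.8 in L4440_ZK, a difference of -0.60 ± 0.10 (adjusted p = 5.09e-05). ceh-49 had 36.1, 34 and 34.1 CPM, against 52.5, 50.9 and 45.8, a difference of -0.52 ± 0.09 (adjusted p = 6.86e-05). ceh-39 had 30.8, 34.3 and 32.7 CPM, against 41.4, 43.8 and 41.8, a difference of -0.38 ± 0.07 (adjusted p = 0.000162). With ceh-21 (-0.33), 4 of 6 CUT and ONECUT genes were lower and 1, ceh-48 (0.87), was higher.

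ceh-40 of the PBC class had 9.01, 9.13 and 8.75 CPM in L4440_RM, against 15.4, 13.9 and 12.5 in L4440_ZK, a difference of -0.64 ± 0.12 (adjusted p = 0.00012). ceh-83 had 24.5, 23.1 and 25.6 CPM, against 30.9, 35 and 31.4, a difference of -0.41 ± 0.08 (adjusted p = 0.00011). The remaining lower members were ceh-92 (-0.34), ceh-20 (-0.36), ceh-16 (-0.79), ceh-93 (-0.36), ceh-74 (-0.27), ceh-37 (-0.38) and ceh-86 (-0.31). Higher in L4440_RM were ceh-51 (1.25), ceh-27 (1.20), ceh-82 (1.01), ceh-79 (0.48), ceh-89 (0.46) and ceh-18 (0.43).

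The number of members that differed between the L4440 groups ran from 18 to 24 with 1 library left out. Calls lost in 1 or more of these fits were those of ceh-18 (0.35 to 0.35, adjusted p up to 0.0861) and ceh-27 (0.80 to 0.91, adjusted p up to 0.135), both without L4440_ZK replicate 3 or L4440_RM replicate 2, ceh-37 (-0.35 to -0.33, adjusted p up to 0.0958) without L4440_ZK replicate 1 or L4440_RM replicate 3, and ceh-74 (-0.26 to -0.24, adjusted p up to 0.0705) without either of the last 2 or L4440_RM replicate 2. ceh-82 (0.71 to 0.94, adjusted p up to 0.143) and ceh-86 (-0.31 to -0.24, adjusted p up to 0.123) were lost without L4440_ZK replicate 1 or 3 or L4440_RM replicate 3, ceh-79 (0.39 to 0.48, adjusted p up to 0.129) without replicate 2 or 3 of either group and ceh-89 (0.31 to 0.44, adjusted p up to 0.227) without replicate 1 or 2 of either group. Markers moved with the prefix: 9 of 10 sperm markers were higher in L4440_RM (33.8 to 42.4 CPM in sum, against 18.0 to 22.1 CPM in L4440_ZK), 3 of 5 embryonic markers were lower (6.16 to 13.4 CPM, against 18.3 to 27.1 CPM), and 4 of 8 germline, 4 of 8 oocyte and 2 of 3 gonadal sheath markers were lower. Somatic markers moved as well, with 7 of 7 body wall muscle markers higher (922 to 1214 CPM in sum, against 637 to 698 CPM), 4 of 5 pharyngeal muscle markers higher, 6 of 8 epidermal and seam markers higher and 1 lower, 5 of 15 neuronal markers higher and 1 lower, and 2 of 7 intestinal markers higher and 1 lower. Their part in the result was not tested.

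**Figure D4:**
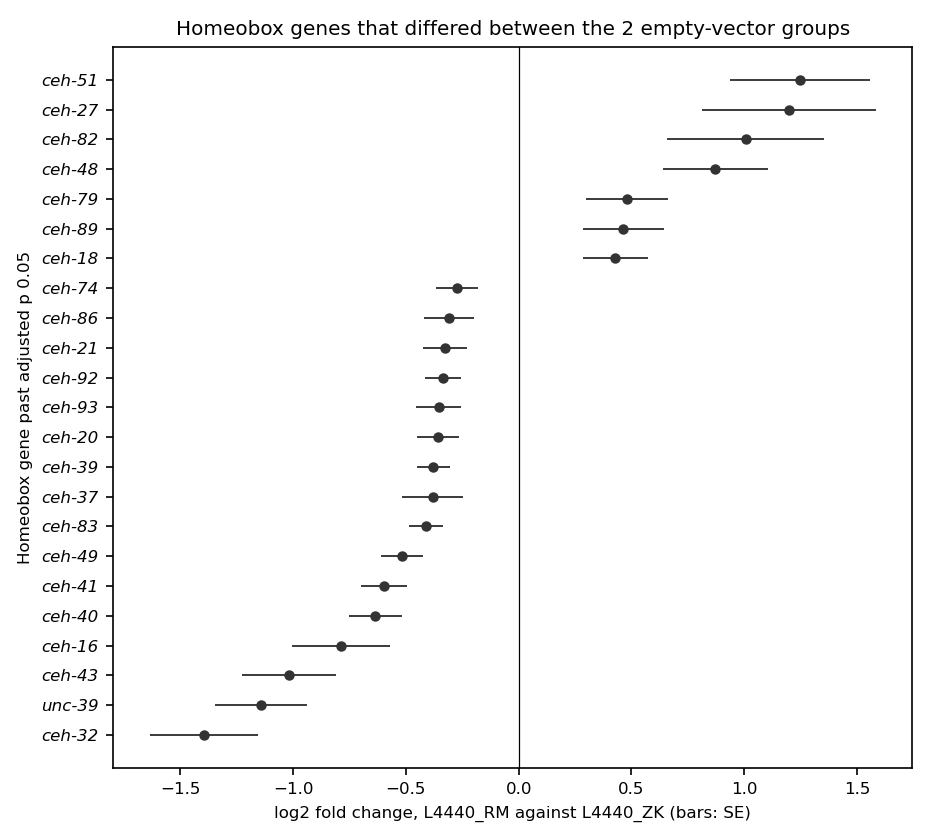
Log2 fold change ± standard error of the 23 members that differed between L4440_RM and L4440_ZK, 3 libraries each. The 16 members below 0 include ceh-32 (-1.40), unc-39 (-1.14) and ceh-43 (-1.02), and ceh-51 (1.25) lies at the other end.

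**Figure D5:**
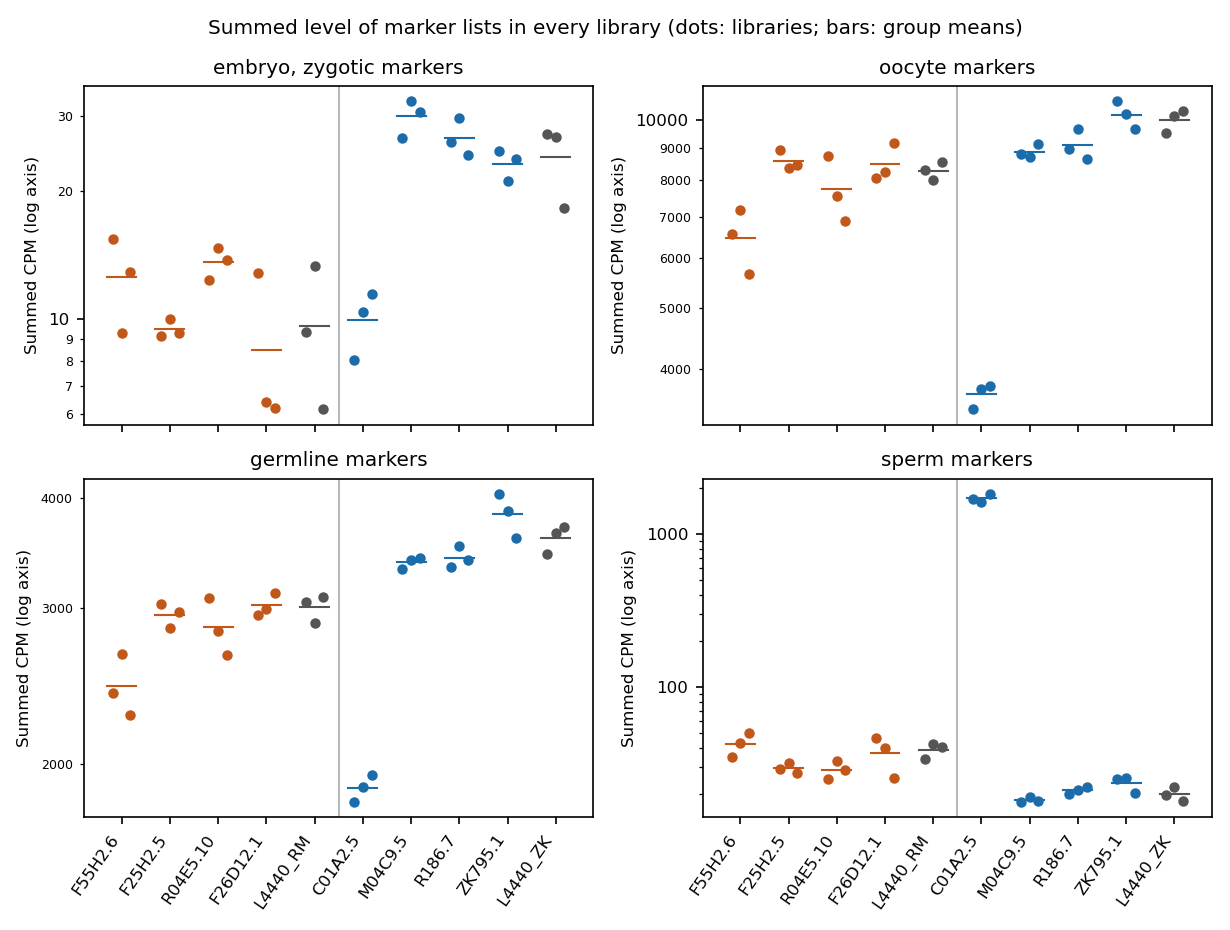
Summed CPM of markers of embryonic zygotic genes, oocytes, germline and sperm in every library, by group. The C01A2.5 libraries have the highest sperm sums (1623 to 1813 CPM) and the lowest oocyte sums (3446 to 3756 CPM), and L4440_RM libraries have lower embryonic sums than L4440_ZK libraries.

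Homeobox genes without a ceh name give a comparison for the set. Of 36 listed, 33 were tested with each prefix. After C01A2.5 RNAi 29 were higher and 3 lower (median 1.32), where 51.7% of all genes were higher and 36.4% lower (median 0.42). Listed genes that passed the filter only through the C01A2.5 libraries were not set apart, and any such gene had to be higher. On the higher side stood the prospero homolog pros-1 (2.91 ± 0.12), the zinc finger homeobox gene zag-1 (2.87 ± 0.19) and the POU gene unc-86 (2.33 ± 0.20). The caudal homolog pal-1 (-1.25 ± 0.05) stood on the lower side. In M04C9.5 9 were higher and 3 lower (median 0.23), with mls-2 (2.25 ± 0.15), unc-86 (1.93 ± 0.21) and the Pax6 homolog vab-3 (1.16 ± 0.13) higher and vab-15 (-0.62 ± 0.22) lower. Of all genes 10.3% were higher and 9.5% lower in M04C9.5.

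In R04E5.10 2 of the 33 were higher, mls-2 (1.95 ± 0.27) and tab-1 (1.69 ± 0.23). After F55H2.6 RNAi 3 were higher, mls-2 (1.71 ± 0.27), pros-1 (1.00 ± 0.19) and tab-1 (0.75 ± 0.24), and after F25H2.5 RNAi 2, tab-1 (1.17 ± 0.24) and duxl-1 (0.34 ± 0.07). Of all genes 1.56% were higher in R04E5.10, 10.4% after F55H2.6 RNAi and 5.26% after F25H2.5 RNAi. After R186.7 RNAi vab-15 was higher (0.77 ± 0.18) and hmbx-1 lower (-0.45 ± 0.08), and none passed edgeR's test in ZK795.1 or F26D12.1. Between the L4440 groups 12 of 34 were higher and 4 lower in L4440_RM, where 23.9% of all genes were higher and 19.9% lower.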

How the data were processed

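Raw counts of reads per gene were taken as deposited for 30 libraries. The submitters' processing notes name bcl2fastq 1.8.4, STAR 2.4.1d, featureCounts 1.4.6-p4 and the genome build WBcel235. The kit was TruSeq RNA v2, per the labels' protocols. A table of RPKM deposited by the authors was not used. Every count column matched a library, leaving 0 unmatched, and 0 pairs of libraries were identical. Gene symbols, coordinates and exon lengths came from an annotation of the same build.

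Low counts were removed with filterByExpr (minimum count 10), libraries scaled by trimmed mean of M values (factors 0.894 to 1.12 over 30 libraries), and robust quasi-likelihood models fitted (edgeR 4.0.16, R 4.3.3). A model with 5 group means covered the 15 libraries of each prefix (10 residual degrees of freedom), on 16495 genes in ZK and 15795 in RM. L4440_RM was compared with L4440_ZK in a fit of all 30 libraries (16867 genes). Adjustment was by Benjamini and Hochberg over all genes, with a threshold of 0.05. A standard error is the size of the log2 change over the root of its F value. The script was tested on simulated data.

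Members past the threshold were named, smallest p first, up to 25 per comparison, with values per library for the first 8 and for unc-39; sine oculis class genes were always described. Members, lists and tests were chosen with earlier results of these data known. Alternatives were relative log expression factors, library totals, no filter, DESeq2 1.42.0, the 6 libraries compared, all 30 libraries, all 6 L4440 libraries as controls, 1 library left out, a block for the order within a group, a fit without C01A2.5 and a fit without the third RM libraries.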

Additional observations from a re-analysis of the deposited data

How the results depend on the processing

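The counts of members called moved by more than 1.5 times in these settings. With all 6 L4440 libraries as controls they were 3 for R186.7, 2 for F25H2.5 and 24 for F55H2.6, and with all 30 libraries fitted together 10 for F25H2.5 and 17 for F55H2.6. With only the 6 libraries compared they were 7 for F55H2.6 and 2 for R04E5.10. Without the third library of every RM group they were 2 for F25H2.5, 1 for F55H2.6 and 1 for R04E5.10. R186.7 had 1 with DESeq2, 2 with library totals and 2 with no filter, ZK795.1 had 1 with no filter, and the difference between R186.7 and ZK795.1 covered 6 members with library totals. The causes were not tested. With 1 library left out the counts ran from 43 to 45 for C01A2.5, 11 to 15 for M04C9.5, 0 to 3 for R186.7, 0 to 2 for ZK795.1, 3 to 5 for F25H2.5, 5 to 13 for F55H2.6, 2 to 5 for R04E5.10, 0 to 0 for F26D12.1 and 18 to 24 for L4440_RM. Calls present in every setting were 35 of 45 for C01A2.5, 10 of 17 for M04C9.5, 12 of 23 for L4440_RM, and 1 each for F25H2.5 (ceh-93), F55H2.6 (ceh-51) and R04E5.10 (unc-39). Signs turned for ceh-58 after C01A2.5 RNAi (-0.00403 with relative log expression factors, -0.0368 with DESeq2), and for values that had not passed: ceh-32 in ZK795.1 (-0.0392 to 0.247 with 1 library left out, lowest without L4440_ZK replicate 3), in F25H2.5 (-0.45 with all 6 L4440 libraries) and in F26D12.1 (0.00101 with library totals, -0.388 to 0.301 with 1 library left out), and unc-39 in F26D12.1 (-0.211 to 0.264 with 1 library left out). Replicate numbers are the order within a group. Running numbers in the titles repeat the groups of a prefix in the same order, and the labels do not say whether libraries of 1 replicate number were handled together. The main fits hold no such block. As a replicate block the replicate numbers gave 45 for C01A2.5, 16 for M04C9.5 and 0 for R186.7, ZK795.1 and F26D12.1. They gave 5 for F25H2.5, 12 for F55H2.6, 6 for R04E5.10 and 24 for L4440_RM. Deviations from group means were also correlated between libraries of different groups. The mean correlation was highest with libraries of the own number for 3 of 15 ZK and 9 of 15 RM libraries. It was 0.0857 for the same number and -0.0421 for other numbers in RM, and -0.0125 and 0.00629 in ZK. Members near 10 counts, such as ceh-57 and ceh-33, are limited by depth.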

Other observations

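In 3 of the 5 RM groups 1 library stood apart in the same direction for ceh-32, ceh-43, unc-39 and the embryonic marker sum. In F55H2.6 library 2 was lowest for ceh-32 (17.9 CPM, against 27.9 and 28.4 in libraries 1 and 3), ceh-43 (9.67, against 17.5 and 17.6) and unc-39 (2.62, against 3.61 and 4.18), and the embryonic sum was 9.31 CPM, against 15.4 and 12.9. In F26D12.1 library 1 was highest for ceh-32 (17.0 CPM, against 8.48 and 9.82), ceh-43 (8.33, against 5.33 and 5.59), unc-39 (1.71, against 1.14 and 1.30) and the embryonic sum (12.8, against 6.41 and 6.21). In L4440_RM library 2 was highest for ceh-32 (16.6 CPM, against 10.1 and 9.12), ceh-43 (9.62, against 6.73 and 6.48), unc-39 (1.94, against 1.18 and 1.14) and the embryonic sum (13.4, against 9.37 and 6.16). The other 2 RM groups did not share this. In R04E5.10 library 2 was lowest for ceh-32 (27.2 CPM), ceh-43 (17.9) and unc-39 (5.47) but had the highest embryonic sum (14.7 CPM, against 12.4 and 13.8). In F25H2.5 library 3 was highest for ceh-32 (17.1 CPM) and unc-39 (3.59), and library 2 for ceh-43 (13.6) and the embryonic sum (10.02 CPM, against 9.17 and 9.31). The pattern was noticed in the data, and its part in the comparisons was not tested.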
